A study of Homo sapiens with 15 samples.

Results

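The genes described here are 37 lysosomal and autophagy genes of U251 cells, picked by symbol from the 22447 genes of a table of RNA-seq read counts. They are 4 lysosomal membrane proteins, 8 cathepsins and other peptidases, 9 glycosidases, 4 sulfatases, 4 genes of lipid breakdown, 4 genes of the proton pump (V-ATPase) and 4 genes of autophagy and its control. The list was drawn up by known function and not by a measured value, though earlier results of these data were known when it was chosen. All 37 genes passed the filter on low counts that left 12719 genes for testing.

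The study asked how the transcription of cancer cells responds to a lower and a higher dose of ionizing radiation over the first day. U251 is a human glioblastoma cell line, given as wild type (WT) in all groups, so the libraries describe 1 cell line. The 5 groups, of 3 libraries each, were untreated control cells, cells collected 6 h and 24 h after 1 Gy, and cells collected 6 h and 24 h after 6 Gy. The control carries the label 0 h. Its cells were nevertheless taken 24 h after irradiation of the others, which puts them level with the 24 h groups and 18 h behind the 6 h groups, for which the samples include no control of their own time point.

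Lysosomes are acidic compartments in which hydrolases cut proteins, sugars, sulfated chains and lipids into reusable parts. The proton pump keeps them acidic, and membrane proteins such as LAMP1 and LAMP2 line them. Autophagy delivers cytoplasm, damaged organelles and protein aggregates to lysosomes in vesicles whose membranes carry lipid-anchored proteins of the LC3 and GABARAP families, while receptors such as p62 (SQSTM1) bring in the cargo. Many genes of both systems can be switched on together by TFEB and its relatives, transcription factors that bind a short palindrome known as the CLEAR element, and that are held in the cytoplasm when mTORC1 senses enough nutrients.

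The 15 libraries held 8691338 to 11719631 counts. Libraries of 1 group correlated at 0.987 to 0.994 across genes, lowest between replicates 1 and 2 of 1 Gy at 6 h. The fits used 13 libraries, without control replicate 3 and replicate 2 of 1 Gy at 6 h, because the study's own expression table leaves these out, with no reason given. Values of these 2 libraries are shown apart. For many single genes, results that change when all 15 are used are given beside the result. Counts by list come from the 13 libraries, and some differ with all 15. The labels do not say whether replicates came from separate cultures, while the study calls them biological replicates and independent experiments. The p-values measure the spread between these libraries. The defining markers fitted the label in part, since VIM, NES, CD44 and SOX2 were high, GFAP averaged 3.45 CPM and OLIG2 had 0 counts in every library. In bulk RNA of this kind, fewer cells of a type and less RNA per cell cannot be told apart.

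The promoters of 24 of the 37 genes could be matched to the RefSeq promoter table (build GRCh38.p14), and their positions were found by an exact match to GRCh37, the same assembly as hg19. The sequences printed here show the palindromes in the promoters of 4 genes whose values are described below, 2 that fell at 24 h (MCOLN1 at both doses, GAA after 1 Gy) and 2 that did not pass the test there (LAMP1 and CTSD). Capitals mark CACGTG, or the longer TCACGTGA where it is present, and each run reads 5′ to 3′ on the strand of its gene.
LAMP1 (chr13:113951350-113951429, plus strand): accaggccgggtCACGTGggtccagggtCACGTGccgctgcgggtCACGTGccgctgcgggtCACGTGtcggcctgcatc
LAMP1 (chr13:113951514-113951543, plus strand): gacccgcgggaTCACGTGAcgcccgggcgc
MCOLN1 (chr19:7587457-7587509, plus strand): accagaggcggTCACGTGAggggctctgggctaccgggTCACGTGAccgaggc
GAA (chr17:78075292-78075366, plus strand): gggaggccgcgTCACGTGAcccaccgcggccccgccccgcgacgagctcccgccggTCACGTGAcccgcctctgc
CTSD (chr11:1785187-1785216, minus strand): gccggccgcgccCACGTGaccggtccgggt

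The start of a gene was taken here from the RefSeq table and can lie inside the gene as the count table bounds it. By the count table, all 30 bases of the second LAMP1 run and of the CTSD run are inside the gene, as are 14 bases of the MCOLN1 run and 12 of the GAA run. In the 250 bases before the RefSeq start, TCACGTGA stood in 5 of the 24 matched promoters (20.8%), those of LAMP1, MCOLN1, CTSA, GAA and ATP6V0D1, against 0.854% of all 35116 promoters in the table. CACGTG, which lies inside TCACGTGA, stood in 8 of 24 (33.3%), adding CD63, CTSD and NEU1, against 6.34% of all promoters. The full CLEAR palindrome of 10 bases stood in 2 of 24 (8.33%), those of MCOLN1 and GAA, against 0.308%. Each gene was read at its first listed promoter, while the shares of all promoters count every promoter listed. The motifs are their own reverse complements, so both strands were covered. Among the matched promoters of genes that changed, those of CTSL, CTSZ, GLA, SMPD1, TFEB, MAP1LC3B and GABARAPL1 held no CACGTG in this window. The promoters of CTSS, CTSB, CTSK and ARSA, which also changed, were not matched and so not read. A match is a run of letters and not a measured binding site.

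Levels were compared between genes per kilobase (kb) of transcript, from CPM, the counts of a gene relative to its library total after TMM scaling, divided by the length of the canonical GENCODE transcript. In the 2 fitted control libraries PSAP, which encodes the precursor of the saposins that help lipid hydrolases, stood highest at 636 ± 13.4 CPM per kb (SD, n = 2). CD63, a tetraspanin of late endosomes, followed at 550 ± 24 CPM per kb, then CTSB at 238 ± 2.67, SQSTM1 at 161 ± 0.33 and LAMP1 at 138 ± 3.98 CPM per kb. The gaps between these 5 were wider than the SDs of their neighbours together, whereas LAMP1 and the next gene, CTSD at 130 ± 4.16 CPM per kb, differed by less. The lowest levels were those of MANBA at 1.85 ± 0.254, CTSK at 1.47 ± 0.146 and CTSS at 0.775 ± 0.292 CPM per kb. CTSS and CTSK were thus measured by few reads, 21 to 75 counts and 10 to 24 counts per library. MANBA and CTSK differed by less than the sum of their SDs.

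At 6 h after irradiation 0 of the 37 genes passed against the control at either dose, by edgeR's quasi-likelihood test with p-values adjusted after Benjamini and Hochberg. For 1 Gy the lowest adjusted p of the 37 was 0.998, and 0% of all 12719 genes were called, a call being an adjusted p under 0.05 together with an absolute log2 fold change above 0.5. Before adjustment 1 gene had a p under 0.05 after 1 Gy. For 6 Gy the lowest adjusted p was 0.190, and 4 genes, all of them higher, were under 0.05 before adjustment, while 0.252% of all genes were called higher and 0.818% lower (0.841% and 2.04% by the adjusted p alone). DESeq2 also called 0 genes in both comparisons. The log2 fold changes of the 37 had a median of 0.04 after 1 Gy and 0.07 after 6 Gy, against 0.00 for all tested genes at both doses. After 6 Gy 30 of 37 were above 0, and after 1 Gy 26 were, values that share the same control libraries and the 18 h gap in harvest. The largest absolute change was 0.42 after 6 Gy and 0.22 after 1 Gy.

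At 24 h part of the genes moved, in both directions. After 1 Gy 2 of 37 genes were called higher (CTSS and GABARAPL1) and 1 lower (MCOLN1), where 3.18% of all genes were called higher and 1.23% lower. By the adjusted p alone 6 rose and 3 fell, against 6.71% and 5.39% of all genes, and with all 15 libraries 7 rose and 4 fell. After 6 Gy 5 were called higher (GABARAPL1, SMPD1, CTSS, CTSZ and ARSA) and 1 lower (CTSK), against 5.58% and 2.19% of all genes. By the adjusted p alone 8 rose and 4 fell, against 12.1% and 11.5%, and with all 15 libraries 8 rose and 5 fell. The median log2 fold change of the 37 genes was 0.01 after 1 Gy and 0.06 after 6 Gy, against 0.00 and -0.00 for all tested genes, and 22 of 37 were above 0 at each dose. These 2 comparisons share the control libraries. Where groups are said below not to overlap, each holds 3 libraries or fewer. TPP1 and ARSB also lay below all control libraries at both doses, yet did not pass on the 13 libraries. How many of all genes separate in this way was not worked out, so separation does not mark a gene out.

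**Figure D1:**
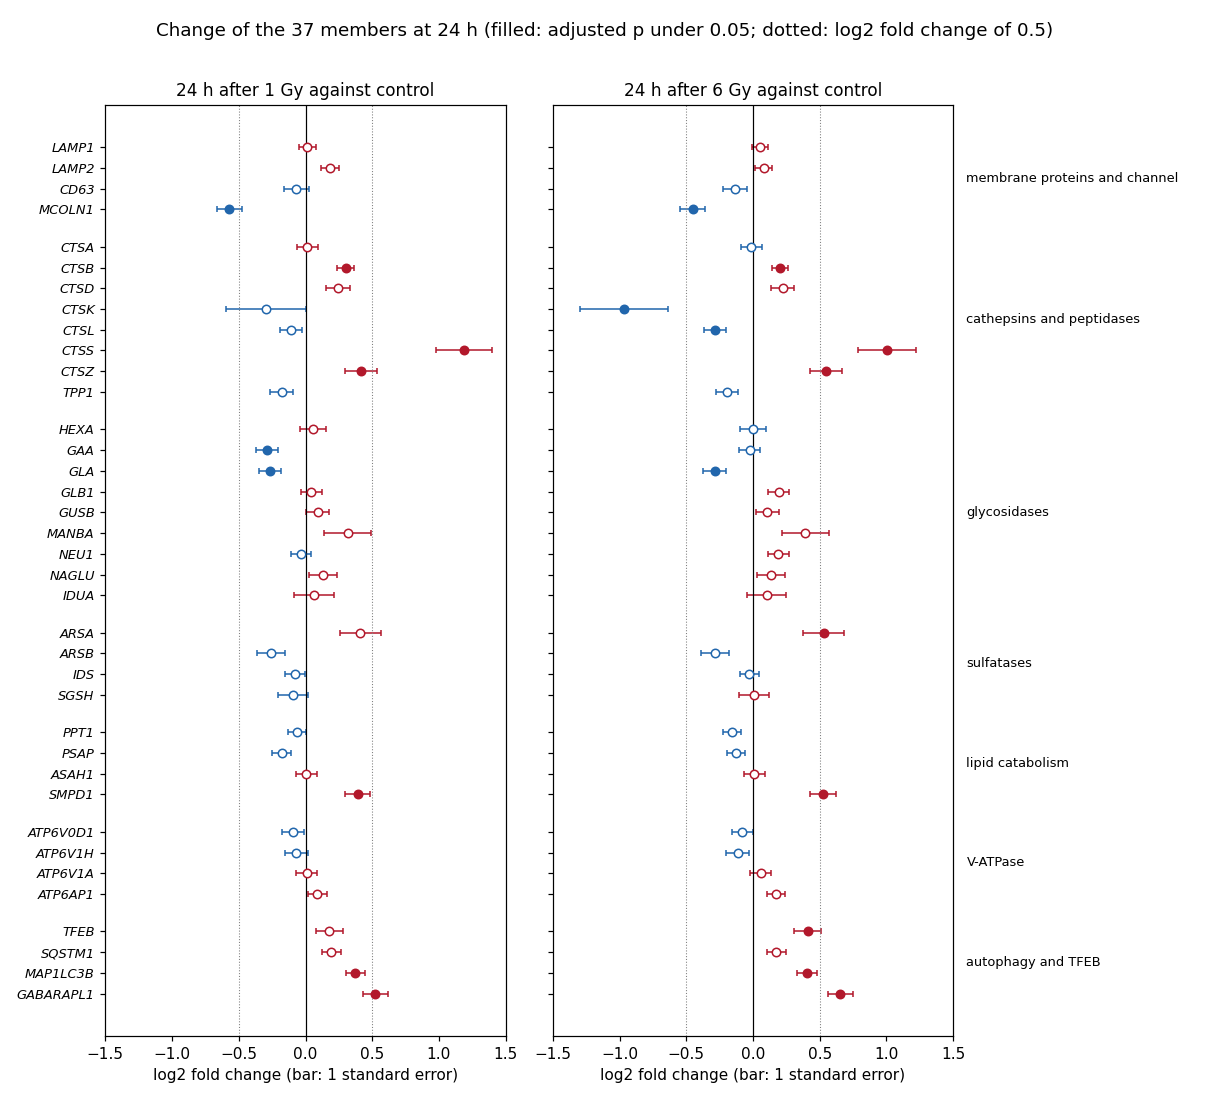
Log2 fold change of each of the 37 genes 24 h after 1 Gy (left) and 24 h after 6 Gy (right) against the control, by role, from the fit on 13 libraries. Bars span 1 standard error to each side, filled points have an adjusted p under 0.05 and dotted lines mark an absolute log2 fold change of 0.5; CTSS lies farthest to the right at both doses and MCOLN1 is left of 0 at both.

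Of the autophagy genes, GABARAPL1 and MAP1LC3B rose at each dose. They are the only genes of the GABARAP and LC3 families among the 37, so their values do not speak for the families. GABARAPL1 (chr12:10365489-10375724), a GABARAP family protein of autophagosome membranes, had 42.0 and 42.8 CPM in the fitted control libraries (44.6 CPM in the left-out one), 58.2, 62.8 and 62.2 CPM at 24 h after 1 Gy, and 65.4, 68.9 and 66.0 CPM at 24 h after 6 Gy. At 6 h it had 35.9 and 41.9 CPM after 1 Gy (41.1 CPM in the left-out library), and 36.7, 46.0 and 42.2 CPM after 6 Gy. Every 24 h library lay above every control and 6 h library. Its log2 fold change against the control was 0.52 (SE 0.0941, adjusted p = 0.000714) 24 h after 1 Gy and 0.66 (SE 0.0936, adjusted p = 3.4e-05) 24 h after 6 Gy, by edgeR's quasi-likelihood test. With all 15 libraries the value after 1 Gy was 0.49, just under the fold threshold of a call, at an adjusted p of 0.000496. With each of the 13 libraries left out in turn it ranged over 0.50 to 0.56 after 1 Gy and 0.63 to 0.67 after 6 Gy.

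MAP1LC3B (chr16:87425801-87438380) encodes LC3B, the protein most used to follow autophagosomes. It had 98.6 and 99.2 CPM in the fitted control libraries (103 CPM in the left-out one), 125, 136 and 123 CPM at 24 h after 1 Gy, and 121, 136 and 136 CPM at 24 h after 6 Gy. The 6 h libraries had 101 and 98.9 CPM after 1 Gy (109 CPM in the left-out library), and 99.6, 104 and 102 CPM after 6 Gy. The 6 libraries of 24 h after irradiation stood above all others. The log2 fold changes of 0.37 after 1 Gy (SE 0.0735, adjusted p = 0.00158) and 0.41 after 6 Gy (SE 0.0735, adjusted p = 0.000431) passed edgeR's test but stayed under the fold threshold. Both genes have near-identical copies elsewhere in the genome, and the sources used here do not say how shared reads were counted. MAP1LC3B2 held 3 to 10 counts per library and GABARAPL3 0 to 1, against 894 to 1468 for MAP1LC3B and 352 to 695 for GABARAPL1.

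TFEB (chr6:41651716-41703997), the transcription factor of the CLEAR element, had 20.5 and 19.4 CPM in the fitted control libraries (20.6 CPM in the left-out one), 22.4, 24.3 and 21.1 CPM at 24 h after 1 Gy, and 28.8, 25.3 and 25.4 CPM at 24 h after 6 Gy. Its 6 h values were 22.2 and 22.6 CPM after 1 Gy (26.7 CPM in the left-out library), and 23.9, 24.4 and 24.1 CPM after 6 Gy. Its level was above every control library in all irradiated libraries, and highest 24 h after 6 Gy, where the left-out 6 h library also lay. TFEB rose 24 h after 6 Gy by a log2 fold change of 0.41 (SE 0.102, adjusted p = 0.00583 by edgeR's test), which became an adjusted p of 0.0899 without control replicate 2. After 1 Gy its log2 fold change of 0.18 had an adjusted p of 0.284, and the direct comparison of 6 Gy with 1 Gy at 24 h gave 0.23 with an adjusted p of 0.157.

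SQSTM1 (chr5:179233388-179265077), the cargo receptor p62, had 459 and 458 CPM in the fitted control libraries (479 CPM in the left-out one), 505, 482 and 586 CPM at 24 h after 1 Gy, and 521, 506 and 526 CPM at 24 h after 6 Gy. In the 6 h groups it had 434 and 463 CPM after 1 Gy (459 CPM in the left-out library), and 488, 466 and 483 CPM after 6 Gy. The 24 h libraries did not overlap with the control, yet the log2 fold changes of 0.19 after 1 Gy and 0.18 after 6 Gy did not pass, with adjusted p values of 0.0795 and 0.0792 by edgeR's test. The value after 6 Gy passed under library total scaling (0.22, adjusted p = 0.0234) and that after 1 Gy under upper quartile scaling (0.21, adjusted p = 0.0494), among other settings. Without replicate 3 of 1 Gy at 24 h the value after 1 Gy was 0.11 (adjusted p = 0.342). Its gene overlaps MGAT4B and C5orf45 on the other strand, and the sources used here do not say whether strand was used in counting.

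**Figure D2:**
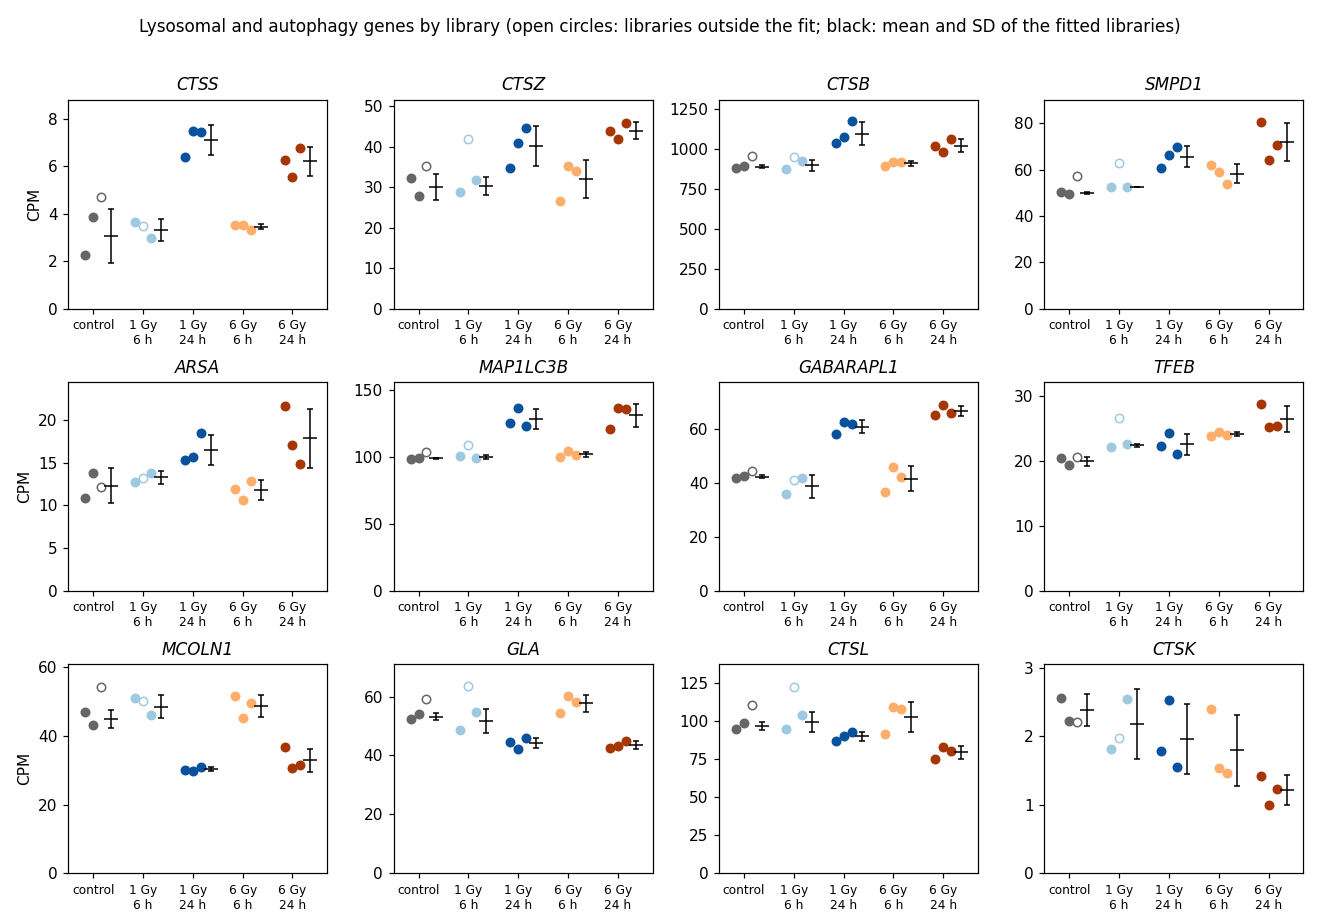
CPM per library (vertical axis, from 0) of 12 genes in the 5 groups. Filled circles are fitted libraries, open circles the 2 libraries outside the fits, and black marks the mean and SD of the fitted libraries; in GABARAPL1 and MAP1LC3B the 24 h libraries lie above the rest, and in MCOLN1 below.

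Among the 8 cathepsins and peptidases 3 rose at each dose, CTSS, CTSZ and CTSB, while CTSK and CTSL fell after 6 Gy. These are 37.5% higher at each dose and 25% lower after 6 Gy. Of all genes 6.71% rose after 1 Gy and 12.1% after 6 Gy, where 11.5% fell. A group of 8 genes is too small to set it apart from the other roles. CTSS (chr1:150702672-150738433) encodes cathepsin S, a cysteine protease best known for trimming the invariant chain in antigen-presenting cells. It had 2.24 and 3.86 CPM in the fitted control libraries (4.69 CPM in the left-out one), 6.38, 7.48 and 7.44 CPM at 24 h after 1 Gy, and 6.29, 5.55 and 6.78 CPM at 24 h after 6 Gy. At 6 h it had 3.64 and 2.99 CPM after 1 Gy (3.48 CPM in the left-out library), and 3.54, 3.50 and 3.33 CPM after 6 Gy. All 6 libraries of 24 h after irradiation exceeded the others, and the control libraries differed among themselves by more than any other group. The log2 fold change was 1.19 after 1 Gy (SE 0.211, adjusted p = 0.000631) and 1.00 after 6 Gy (SE 0.215, adjusted p = 0.0018), by edgeR's test, the largest of the 37 in either direction at both doses. With all 15 libraries the value after 1 Gy was 0.94, and without control replicate 1 the value after 6 Gy was 0.68 with an adjusted p of 0.0657.

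Since CTSS is abundant in myeloid cells, markers of that lineage were read beside it. Of 12 markers 11 are in the table and 4 passed the filter on low counts. CX3CR1 had 0 counts in every library and AIF1, TYROBP and SPI1 had at most 1, 3 and 2 counts. The summed level of the list was 7.99 to 9.92 CPM in the control, 13.4 to 15.3 CPM 24 h after 1 Gy and 14.6 to 16.4 CPM 24 h after 6 Gy, most of it from LAPTM5, which encodes a lysosomal membrane protein of blood cells. LAPTM5 rose by a log2 fold change of 0.86 (adjusted p = 0.00161, edgeR) after 1 Gy and 0.96 (adjusted p = 0.000306) after 6 Gy. The other 3 markers tested did not pass, with log2 fold changes after 1 Gy and 6 Gy of 1.52 and 1.19 for ITGAM (adjusted p = 0.0687 and 0.133), 0.78 and 0.96 for CSF1R (adjusted p = 0.195 and 0.065), and 0.31 and -0.13 for CD14 (adjusted p = 0.684 and 0.86). The part of these markers in the result for CTSS was not tested. A list of epithelial markers, with EPCAM at 0 counts, summed to 10.6 to 18.3 CPM over all libraries.

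CTSZ (chr20:57570242-57582309), the carboxypeptidase cathepsin Z, had 32.3 and 27.8 CPM in the fitted control libraries (35.2 CPM in the left-out one), 34.9, 40.9 and 44.7 CPM at 24 h after 1 Gy, and 44.01, 41.8 and 46.0 CPM at 24 h after 6 Gy. The 6 h libraries had 28.7 and 31.9 CPM after 1 Gy (41.9 CPM in the left-out library), and 26.7, 35.3 and 34.1 CPM after 6 Gy. The 6 Gy libraries of 24 h lay above all control libraries, while the lowest 1 Gy library lay under the left-out control. CTSZ rose by 0.41 on the log2 scale after 1 Gy (SE 0.121, adjusted p = 0.0274) and by 0.55 after 6 Gy (SE 0.12, adjusted p = 0.00214), by edgeR's test. The rise after 1 Gy did not pass with all 15 libraries, where the log2 fold change was 0.33 and the adjusted p 0.111. For 6 Gy, all 15 libraries gave 0.47, under the fold threshold, and leaving out control replicate 2 gave 0.44 with an adjusted p of 0.073. The rise after 1 Gy was lost without either fitted control library and without replicate 2 or 3 of its own group, with adjusted p values up to 0.294.

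CTSB (chr8:11700034-11725646), cathepsin B, is one of the most abundant lysosomal proteases. It had 879.5 and 894 CPM in the fitted control libraries (956 CPM in the left-out one), 1035, 1071 and 1173 CPM at 24 h after 1 Gy, and 1016, 980.0 and 1063 CPM at 24 h after 6 Gy. Its 6 h values were 872 and 922 CPM after 1 Gy (947 CPM in the left-out library), and 889.8, 915 and 919 CPM after 6 Gy. The 24 h libraries stood above all control libraries by a small margin. The log2 fold change was 0.30 after 1 Gy (SE 0.0632, adjusted p = 0.00269) and 0.20 after 6 Gy (SE 0.063, adjusted p = 0.0235), by edgeR's test, and the value after 6 Gy had an adjusted p of 0.053 over all 15 libraries. Without control replicate 1 neither rise passed (0.29, adjusted p = 0.051 after 1 Gy, and 0.19, adjusted p = 0.15 after 6 Gy), and the rise after 6 Gy was also lost without control replicate 2 (adjusted p = 0.123) and without replicate 3 of 6 Gy at 24 h (adjusted p = 0.0888).

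CTSD (chr11:1773982-1785222), the aspartic protease cathepsin D, had 273 and 260.4 CPM in the fitted control libraries (300.1 CPM in the left-out one), 290.2, 331 and 325 CPM at 24 h after 1 Gy, and 356, 273 and 303 CPM at 24 h after 6 Gy. In the 6 h groups it had 281 and 301 CPM after 1 Gy (355 CPM in the left-out library), and 299, 297 and 277 CPM after 6 Gy. With the left-out control counted, the groups overlapped at both doses. The log2 fold changes of 0.24 after 1 Gy and 0.22 after 6 Gy had adjusted p values of 0.0723 and 0.0702 by edgeR's test and did not pass. It passed after 6 Gy under library total and upper quartile scaling (0.27 and 0.26, adjusted p = 0.031 and 0.0397), and after 1 Gy with no filter and in the fit on the compared groups alone (0.24 in both, adjusted p = 0.0182 and 0.0277), among other settings. The value after 6 Gy was 0.11 (adjusted p = 0.319) without replicate 1 of 6 Gy at 24 h and 0.31 (adjusted p = 0.0111) without replicate 2.

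CTSL (chr9:90340974-90346384), cathepsin L, moved the other way. It had 94.8 and 99.0 CPM in the fitted control libraries (111 CPM in the left-out one), 87.1, 90.2 and 92.9 CPM at 24 h after 1 Gy, and 74.9, 82.9 and 80.6 CPM at 24 h after 6 Gy. At 6 h it had 95.0 and 104 CPM after 1 Gy (123 CPM in the left-out library), and 91.4, 109 and 108 CPM after 6 Gy. The groups of 24 h did not overlap with the control at either dose. CTSL fell 24 h after 6 Gy, with a log2 fold change of -0.29 (SE 0.0829, adjusted p = 0.0154 by edgeR's test), and its -0.11 after 1 Gy did not pass (adjusted p = 0.447). The fall after 6 Gy was lost without control replicate 1 (adjusted p = 0.0537) or 2 (adjusted p = 0.15).

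CTSK (chr1:150768684-150780917), cathepsin K, the collagen-cutting protease of osteoclasts, had 2.56 and 2.22 CPM in the fitted control libraries (2.20 CPM in the left-out one), 1.79, 2.53 and 1.55 CPM at 24 h after 1 Gy, and 1.42, 0.992 and 1.23 CPM at 24 h after 6 Gy. The 6 h libraries had 1.82 and 2.55 CPM after 1 Gy (1.97 CPM in the left-out library), and 2.40, 1.53 and 1.46 CPM after 6 Gy. The lowest levels were those of 24 h after 6 Gy, below all control libraries. Its log2 fold change there was -0.97 (SE 0.327, adjusted p = 0.0359 by edgeR's test) on 10 to 14 counts per library, against 23 to 24 in the control. The call was lost with DESeq2 (adjusted p = 0.105), without control replicate 1 (adjusted p = 0.186) or 2 (0.111), and without replicate 2 (0.102) or 3 (0.0743) of 6 Gy at 24 h. Of the remaining peptidases, CTSA (cathepsin A, which also protects other hydrolases) and TPP1 (a tripeptidyl peptidase) did not pass at either dose, with log2 fold changes between -0.20 and 0.01.

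Of the 9 glycosidases 0 rose at 24 h, and GLA fell at both doses. With 6.71% of all genes higher after 1 Gy and 12.1% after 6 Gy, 0 of 9 does not set this role apart. The shares that fell, 22.2% after 1 Gy and 11.1% after 6 Gy, stood beside 5.39% and 11.5% of all genes. GLA (chrX:100652779-100663001), the alpha-galactosidase that is deficient in Fabry disease, had 52.3 and 54.0 CPM in the fitted control libraries (59.1 CPM in the left-out one), 44.6, 42.4 and 45.8 CPM at 24 h after 1 Gy, and 42.4, 43.1 and 45.1 CPM at 24 h after 6 Gy. Its 6 h values were 48.7 and 54.7 CPM after 1 Gy (63.6 CPM in the left-out library), and 54.6, 60.3 and 58.3 CPM after 6 Gy. Every 24 h library lay under every other library. The log2 fold changes were -0.26 after 1 Gy (SE 0.0829, adjusted p = 0.0403) and -0.29 after 6 Gy (SE 0.0829, adjusted p = 0.0146), by edgeR's test. The fall after 1 Gy no longer passed with DESeq2 (adjusted p = 0.0677) and with 7 of the 13 libraries left out in turn (adjusted p up to 0.241), and the fall after 6 Gy was lost without control replicate 1 (adjusted p = 0.06) or 2 (0.133).

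GAA (chr17:78075355-78093679), the acid alpha-glucosidase that breaks down glycogen and is deficient in Pompe disease, was singled out after its values were seen. It had 95.9 and 100.4 CPM in the fitted control libraries (104 CPM in the left-out one), 75.8, 77.7 and 87.7 CPM at 24 h after 1 Gy, and 105, 89.0 and 95.2 CPM at 24 h after 6 Gy. In the 6 h groups it had 109 and 116 CPM after 1 Gy (109 CPM in the left-out library), and 107, 104 and 107 CPM after 6 Gy. The 1 Gy libraries of 24 h were the lowest, and those of 24 h after 6 Gy overlapped with the control. GAA fell after 1 Gy, with a log2 fold change of -0.29 (SE 0.0814, adjusted p = 0.0215 by edgeR's test), against -0.025 after 6 Gy (adjusted p = 0.86). The fall after 1 Gy was lost without control replicate 1 (adjusted p = 0.0825) or 2 (0.198) and without replicate 1 (0.0713) or 2 (0.0746) of its own group. The other 7 glycosidases (HEXA, GLB1, GUSB, MANBA, NEU1, NAGLU and IDUA) did not pass against the control at either dose, though NEU1 was higher after 6 Gy with all 15 libraries (adjusted p = 0.0422).

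Of the 4 sulfatases 1 rose, and it passed after 6 Gy. With 12.1% of all genes higher after 6 Gy, 1 of 4 genes does not set this role apart. ARSA (chr22:51061182-51066601), arylsulfatase A, which removes sulfate from sulfatides of myelin, had 10.9 and 13.8 CPM in the fitted control libraries (12.2 CPM in the left-out one), 15.4, 15.7 and 18.5 CPM at 24 h after 1 Gy, and 21.7, 17.1 and 14.9 CPM at 24 h after 6 Gy. At 6 h it had 12.7 and 13.8 CPM after 1 Gy (13.2 CPM in the left-out library), and 11.9, 10.6 and 12.9 CPM after 6 Gy. The 24 h libraries lay above all others at both doses. The log2 fold change was 0.53 after 6 Gy (SE 0.154, adjusted p = 0.016) and 0.41 after 1 Gy (SE 0.156, adjusted p = 0.0888), by edgeR's test, and the direct comparison of 6 Gy with 1 Gy gave 0.12 (adjusted p = 0.67). Over all 15 libraries the adjusted p after 1 Gy was 0.0498. The call after 6 Gy was lost without control replicate 1 (0.37, adjusted p = 0.207) and without replicate 1 of 6 Gy at 24 h (0.37, adjusted p = 0.0868). The other 3 (ARSB, IDS and SGSH) did not pass, the largest change being that of ARSB at -0.28 after 6 Gy (adjusted p = 0.0548).

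In the breakdown of lipids SMPD1 rose at both doses, while PPT1 (a thioesterase), PSAP and ASAH1 (acid ceramidase) did not pass. When all 15 libraries were fitted, PSAP was lower after 1 Gy (adjusted p = 0.0262) and PPT1 lower after 6 Gy (adjusted p = 0.0347). SMPD1 (chr11:6411644-6416228) encodes acid sphingomyelinase, which cuts sphingomyelin to ceramide. It had 50.2 and 49.6 CPM in the fitted control libraries (57.4 CPM in the left-out one), 60.7, 66.3 and 69.7 CPM at 24 h after 1 Gy, and 80.5, 64.2 and 70.8 CPM at 24 h after 6 Gy. The 6 h libraries had 52.7 and 52.7 CPM after 1 Gy (62.7 CPM in the left-out library), and 62.0, 58.9 and 54.0 CPM after 6 Gy. The 24 h libraries stood above all control libraries at both doses. The log2 fold change was 0.39 after 1 Gy (SE 0.0956, adjusted p = 0.00892) and 0.53 after 6 Gy (SE 0.0951, adjusted p = 0.000431), by edgeR's test. The value after 6 Gy was 0.45 with all 15 libraries and 0.44 without replicate 1 of 6 Gy at 24 h, both under the fold threshold. The rise after 1 Gy did not pass without control replicate 1 (adjusted p = 0.0741) or 2 (0.0976).

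Of the membrane proteins MCOLN1 fell, and LAMP1, LAMP2 and CD63 did not pass. MCOLN1 (chr19:7587496-7598895) encodes mucolipin 1, a channel that releases calcium from lysosomes, and its promoter holds the 2 runs of TCACGTGA printed above. It had 46.9 and 43.2 CPM in the fitted control libraries (54.2 CPM in the left-out one), 30.2, 29.8 and 30.9 CPM at 24 h after 1 Gy, and 36.7, 30.5 and 31.4 CPM at 24 h after 6 Gy. Its 6 h values were 51.0 and 46.1 CPM after 1 Gy (50.1 CPM in the left-out library), and 51.6, 45.3 and 49.6 CPM after 6 Gy. The 6 libraries of 24 h after irradiation lay under all others, and those of 1 Gy lay close together. The log2 fold change was -0.57 after 1 Gy (SE 0.0963, adjusted p = 0.000388) and -0.45 after 6 Gy (SE 0.0955, adjusted p = 0.00161), by edgeR's test. With all 15 libraries it was -0.67 and -0.55, past the fold threshold at both doses. With each of the 13 libraries left out in turn it ranged over -0.63 to -0.51 after 1 Gy and -0.54 to -0.39 after 6 Gy and still passed.

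LAMP1 (chr13:113951469-113977741), the major glycoprotein of the lysosomal membrane, had 364 and 379 CPM in the fitted control libraries (395 CPM in the left-out one), 356, 374 and 397 CPM at 24 h after 1 Gy, and 395, 375 and 386 CPM at 24 h after 6 Gy. In the 6 h groups it had 375 and 392 CPM after 1 Gy (408 CPM in the left-out library), and 398, 381 and 396 CPM after 6 Gy. All groups overlapped. The log2 fold changes were 0.01 after 1 Gy (SE 0.0628, adjusted p = 0.926) and 0.05 after 6 Gy (SE 0.0628, adjusted p = 0.591) by edgeR's test. LAMP2 had an adjusted p of 0.0711 after 1 Gy, and passed with all 15 libraries (adjusted p = 0.0304, higher). The 4 genes of the proton pump (ATP6V0D1, ATP6V1H, ATP6V1A and ATP6AP1) did not pass in any comparison on the 13 libraries, with log2 fold changes at 24 h against the control between -0.11 and 0.17.

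The 2 doses were also compared directly. At 6 h 0 of 37 genes passed in 6 Gy against 1 Gy (lowest adjusted p = 0.714, edgeR) and 0 were under 0.05 before adjustment, where 0.0157% of all genes were called higher and 0.566% lower (0.0943% and 0.959% by the adjusted p alone). At 24 h 0 were called, where 0.267% of all genes were called higher and 0.173% lower, and by the adjusted p alone GAA was higher after 6 Gy than after 1 Gy, by a log2 fold change of 0.27 (SE 0.0733, adjusted p = 0.046). This was 1 of 37, against 1.6% of all genes higher and 2.06% lower by that rule. It did not pass with all 15 libraries (adjusted p = 0.0673), and with 9 of the 13 libraries left out in turn the adjusted p was over 0.05, up to 0.202. NEU1, a sialidase, was next with 0.23 (adjusted p = 0.0661). Before adjustment 4 genes were higher after 6 Gy and 2 lower at a p under 0.05. DESeq2 called 0 genes in both of these comparisons.

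Between the time points more of the genes passed, as did more of all genes. At 24 h against 6 h after 1 Gy 2 genes were called higher (CTSS and GABARAPL1) and 1 lower (MCOLN1), against 3.9% and 1.58% of all genes, and by the adjusted p alone 8 rose and 3 fell, against 8.59% and 7.29%. After 6 Gy 3 were called higher (CTSS, ARSA and GABARAPL1) and 1 lower (MCOLN1), against 7.57% and 3.06% of all genes, and by the adjusted p alone 9 rose and 7 fell, against 17.9% and 16.6%. The call of ARSA was lost without replicate 1 of 6 Gy at 24 h, where its log2 fold change was 0.43 (adjusted p = 0.0191). The median log2 fold change of the 37 was -0.02 at both doses. The 24 h libraries here are those compared with the control above, so these values share them. No untreated cells were taken at the time of the 6 h groups. In all comparisons of time points, a response to irradiation and a difference of harvest time cannot be told apart.

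The largest of these differences were those of the genes already named. GABARAPL1 had a log2 fold change of 0.65 at 24 h against 6 h after 1 Gy (adjusted p = 6.33e-05) and 0.68 after 6 Gy (adjusted p = 2.4e-06), by edgeR's test. MCOLN1 had -0.68 after 1 Gy (adjusted p = 3.59e-05) and -0.57 after 6 Gy (adjusted p = 2.9e-05). CTSS had 1.08 after 1 Gy (adjusted p = 0.00105) and 0.84 after 6 Gy (adjusted p = 0.00149). GAA fell by 0.48 on the log2 scale between the time points after 1 Gy (adjusted p = 0.000261), while its -0.14 after 6 Gy did not pass.

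Other genes passed in the comparison of time points without doing so against the control. PSAP fell at both doses, by 0.27 after 1 Gy and 0.25 after 6 Gy on the log2 scale, and LAMP2 rose by 0.24 and 0.20. SQSTM1 rose by 0.22 after 1 Gy, and after 6 Gy PPT1, TPP1 and ARSB fell by 0.29, 0.23 and 0.25 while NEU1 rose by 0.27. Several of these were lost with 1 library left out. SQSTM1 was lost in 5 of 13 such fits, with 0.14 (adjusted p = 0.175) without replicate 3 of 1 Gy at 24 h, and in the fit on the compared groups alone (adjusted p = 0.103). PSAP and LAMP2 after 1 Gy were lost without replicate 3 of 1 Gy at 6 h (adjusted p = 0.149 and 0.208), and LAMP2 also without replicate 2 of 1 Gy at 24 h (adjusted p = 0.0506). Without replicate 2 of 6 Gy at 24 h LAMP2, TPP1 and ARSB did not pass after 6 Gy (adjusted p = 0.0622, 0.102 and 0.0747). TPP1 and ARSB were also lost under library total scaling (adjusted p = 0.057 and 0.0946). With all 15 libraries the comparison after 1 Gy passed 6 genes higher and 5 lower, with CTSZ and SMPD1 lost (adjusted p = 0.247 and 0.124) and GLA and ATP6V0D1 gained as lower (adjusted p = 0.0115 and 0.0152). Whether the change between time points differed by dose was tested as an interaction of dose and time. In it 0 of 37 genes passed, the lowest adjusted p being that of GAA at 0.212 (log2 difference 0.35, SE 0.108, edgeR), where 0.267% of all genes were called higher and 0.0236% lower (0.322% and 0.0629% by the adjusted p alone). Before adjustment 2 genes had a p under 0.05, and DESeq2 called 0.

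**Figure D3:**
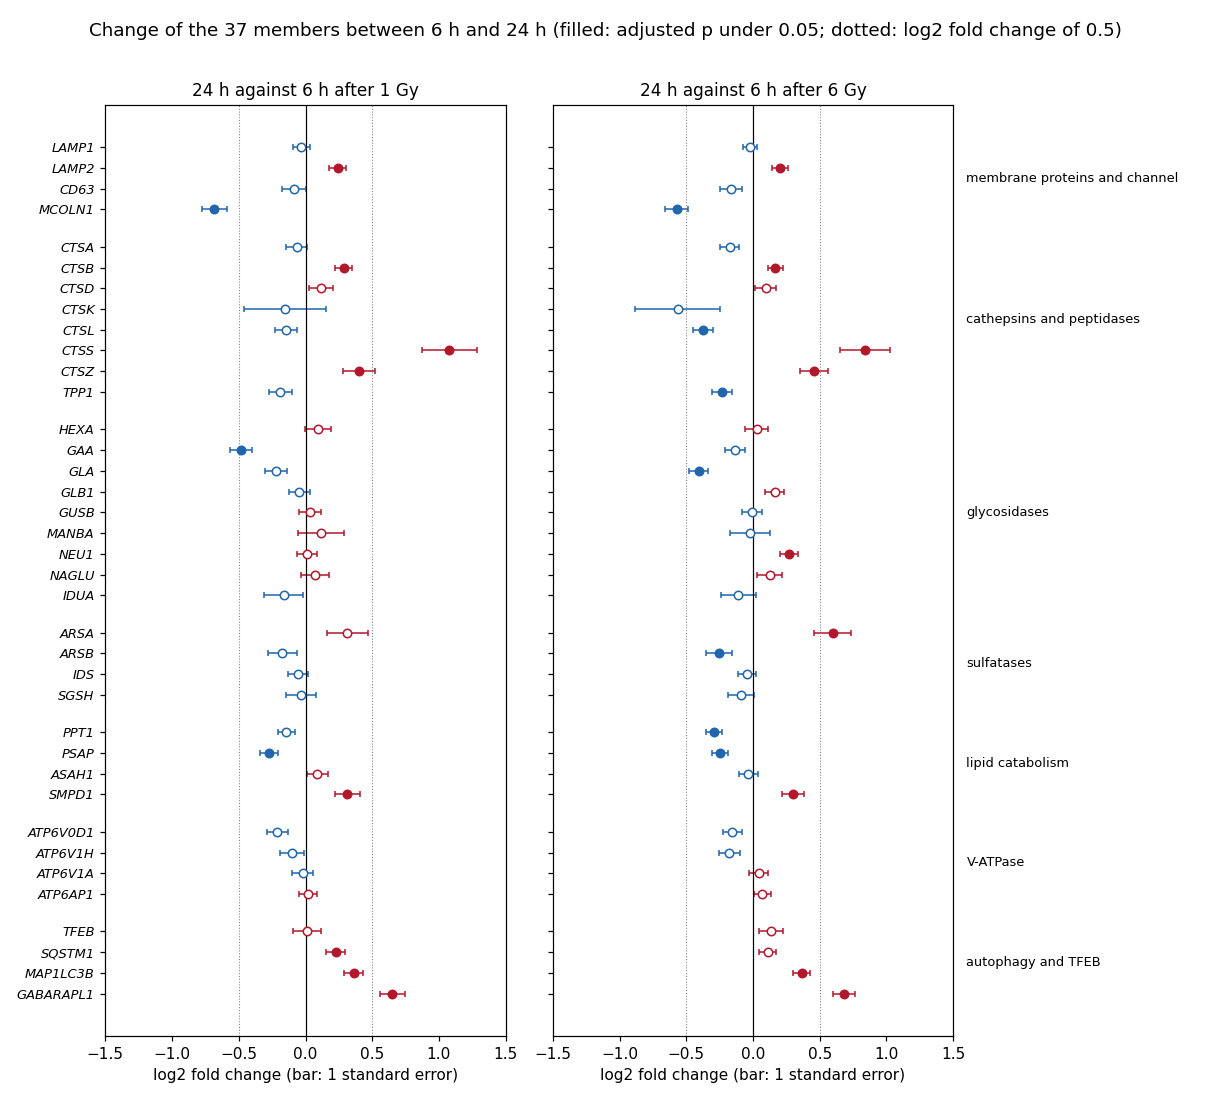
Log2 fold change of each of the 37 genes at 24 h against 6 h after 1 Gy (left) and after 6 Gy (right), by role, with bars of 1 standard error to each side. Filled points have an adjusted p under 0.05 and dotted lines mark an absolute log2 fold change of 0.5; 8 genes rose and 3 fell after 1 Gy, and 9 rose and 7 fell after 6 Gy.

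The rest of the lysosome and autophagy pathway was read from 6 further lists, with 154 genes tested of 165 in the table. At 24 h after 1 Gy 18 of the 154 rose and 4 fell by the adjusted p, and 7 were called higher and 1 lower. These are 11.69% and 2.6% of the 154 by the adjusted p, against 6.71% and 5.39% of all genes, and 4.55% and 0.649% by the call, against 3.18% and 1.23%. At 24 h after 6 Gy 30 rose and 11 fell, and 9 were called higher and 1 lower. These are 19.5% and 7.14% by the adjusted p, against 12.1% and 11.5% of all genes, and 5.84% and 0.649% by the call, against 5.58% and 2.19%. On all 15 libraries, by the adjusted p, 22 rose and 6 fell after 1 Gy, and 32 rose and 11 fell after 6 Gy. The medians of the log2 fold changes were 0.02 and 0.06. The shares were uneven between the lists, as the plot of passing genes by list shows.

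Among the 21 autophagy receptors and inducers 8 rose after 1 Gy and 10 after 6 Gy, and 0 fell at either dose. The shares that rose, 38.1% and 47.6%, stood beside 6.71% and 12.1% of all genes, and 5.39% and 11.5% of all genes fell. The list was chosen with earlier results of these data known, so these shares cannot be read apart from that choice. On all 15 libraries 10 rose at each dose. The medians of the log2 fold changes of the list were 0.24 and 0.14. TP53INP2, which recruits LC3 family proteins to forming autophagosomes, averaged 36.9 ± 1.93 CPM in the control, 61.2 ± 4.31 CPM 24 h after 1 Gy and 67.0 ± 2.32 CPM 24 h after 6 Gy (SD, n = 2 fitted control and 3 irradiated libraries each). Its log2 fold changes were 0.73 and 0.86 (adjusted p = 5.11e-06 and 4.89e-07, edgeR). BNIP3L, a mitophagy receptor, rose by 0.81 and 0.77 at the 2 doses, and NBR1, a cargo receptor related to p62, by 0.31 and 0.44. DRAM1, a p53-induced lysosomal membrane protein that promotes autophagy, averaged 86.2 ± 3.38 CPM in the control, 128 ± 5.64 CPM after 1 Gy and 92.1 ± 5.11 CPM after 6 Gy. It rose after 1 Gy by 0.57 (adjusted p = 2.1e-05) and had 0.10 after 6 Gy (adjusted p = 0.381), and in 6 Gy against 1 Gy at 24 h it was lower by -0.47 (adjusted p = 0.000418).

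Of the 36 genes of the core autophagy machinery 3 rose after 1 Gy, and 6 rose and 2 fell after 6 Gy. The 8.33% that rose after 1 Gy was near the 6.71% of all genes, and after 6 Gy 16.7% rose and 5.56% fell, against 12.1% and 11.5% of all genes. VMP1, an endoplasmic reticulum protein needed for autophagosome formation, rose by 0.53 and 0.36 on the log2 scale at the 2 doses, and TMEM41B, its partner in that step, by 0.45 and 0.36. ULK1, the kinase that starts autophagy, rose by 0.45 and 0.73. ATG16L1, part of the complex that attaches LC3 to lipid, fell by 0.31 after 6 Gy. In the fit on all 15 libraries 4 genes of this list fell after 6 Gy.

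Of 28 other lysosomal hydrolases 2 rose after 1 Gy, and 5 rose and 1 fell after 6 Gy. The 7.14% that rose after 1 Gy was near the share of all genes (6.71%), and after 6 Gy 17.9% rose and 3.57% fell, against 12.1% and 11.5%. DNASE2, the acid DNase that degrades DNA in lysosomes, rose by 0.44 and 0.68 on the log2 scale at the 2 doses. GALNS, a sulfatase of keratan and chondroitin sulfate, rose by 0.65 after 6 Gy and MAN2B2, a mannosidase, by 0.39. CTSC, cathepsin C, fell by 0.33 after 6 Gy.

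Of 30 other membrane and cofactor genes 3 rose and 2 fell after 1 Gy, and 6 rose and 3 fell after 6 Gy. After 1 Gy 10% rose and 6.67% fell, against 6.71% and 5.39% of all genes, and after 6 Gy 20% rose and 10% fell, against 12.1% and 11.5%. CLCN6, a chloride-proton exchanger of late endosomes, rose by 0.53 and 0.47 at the 2 doses, and LAPTM4B by 0.28 and 0.20. LAMP3 rose by 0.49 after 6 Gy, and CLN6, an endoplasmic reticulum protein whose loss causes a lysosomal storage disease, fell by 0.29 and 0.37. Of the 14 other V-ATPase subunits 0 passed after 1 Gy, though 1 was lower in the fit on all 15 libraries. After 6 Gy ATP6V0B and ATP6V0A2 fell by 0.29 and 0.27, which is 14.3% against 11.5% of all genes.

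Of the 25 genes of the TFEB family and mTORC1 control 2 rose and 2 fell after 1 Gy, and 3 rose and 3 fell after 6 Gy. These shares, 8% in each direction after 1 Gy and 12% after 6 Gy, were near those of all genes (6.71% and 5.39%, and 12.1% and 11.5%). RRAGA, a Rag GTPase that brings mTORC1 to the lysosome, rose by 0.41 and 0.27 on the log2 scale. MTOR, its kinase, fell by 0.38 after 1 Gy and had -0.11 after 6 Gy (adjusted p = 0.36). The calcineurin subunits moved apart after 6 Gy, where PPP3CA rose by 0.38 and PPP3CB fell by 0.36. MITF, a relative of TFEB that was singled out after its values were seen, had 16 and 21 counts in the fitted control libraries, 10, 6 and 8 counts 24 h after 1 Gy and 4, 10 and 5 counts 24 h after 6 Gy. Its log2 fold changes were -1.19 (SE 0.354, adjusted p = 0.0302) and -1.53 (SE 0.371, adjusted p = 0.00478) by edgeR's test, and those of TFE3, the other family member measured, were 0.04 at both doses. The change of MITF after 1 Gy did not pass with DESeq2 (adjusted p = 0.119).

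Leaving out control replicate 1 or 2 ended 17 of the 37 passing values at 24 h that are named for LAPTM5, MITF and the genes of these lists. After 1 Gy these were NBR1, ULK1, DNASE2, CLN6, LAPTM4B, MTOR and MITF. After 6 Gy they were TMEM41B, ATG16L1, CLN6, LAPTM4B, LAMP3, ATP6V0B, ATP6V0A2, RRAGA, PPP3CA and MITF. ATP6V0A2 after 6 Gy was also lost with all 15 libraries (adjusted p = 0.0957).

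**Figure D4:**
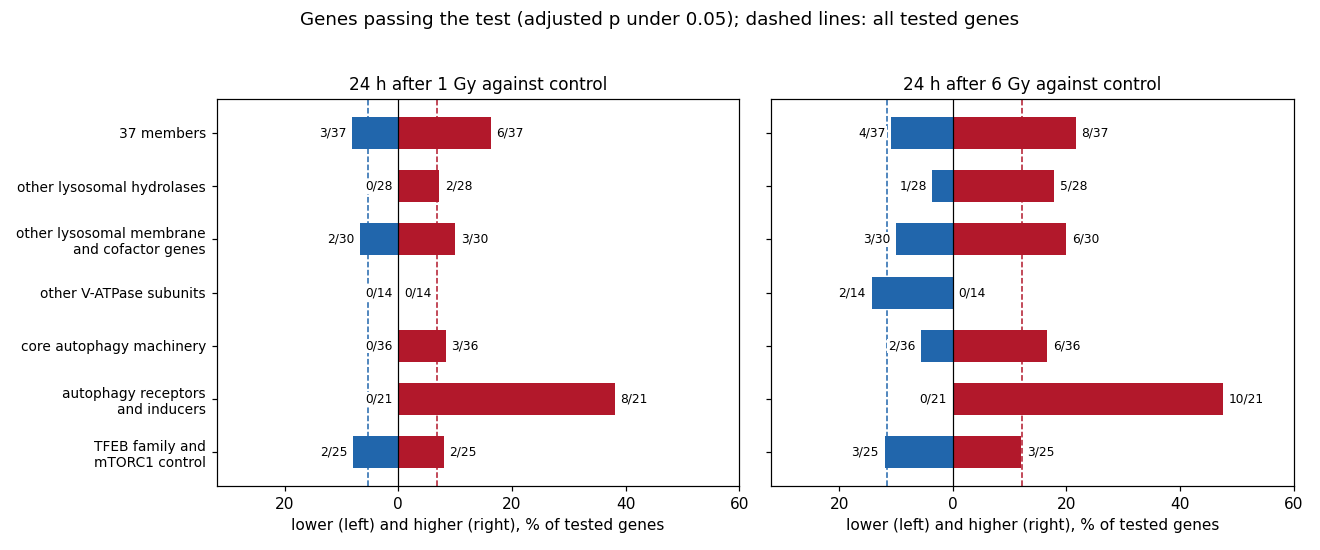
Share of tested genes that passed (adjusted p under 0.05), in %, lower to the left and higher to the right of 0, for the 37 genes and 6 other pathway lists 24 h after 1 Gy and 24 h after 6 Gy against the control. Labels give genes passing over genes tested and dashed lines the shares of all 12719 genes. The autophagy receptors and inducers reach farthest to the right, with 8 of 21 and 10 of 21. All lists were chosen with earlier results of these data known.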

How the data were processed

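RNA-seq of 15 U251 libraries in 5 groups was used. The authors deposited raw read counts of 22447 genes, made with TopHat and HTSeq on hg19 per the submitters' processing notes (the sources used here give no versions). A deposited table of the authors' own fold changes, p-values, calls and scaled values was not used. Reads came from poly(A) RNA and the NEBNext Ultra kit. The table held 0 columns of other samples.

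Genes were tested on the deposited counts by edgeR 4.0.16 under R 4.3.3. Its filterByExpr filter (minimum count 10, total 15, large group size 10, proportion 0.7) kept 12719 genes on the 13 libraries (12597 on all 15), with TMM scaling and 1 quasi-likelihood fit over the 5 groups, 8 residual degrees of freedom and Benjamini-Hochberg adjustment over all tested genes. CPM are counts over the TMM-scaled library size, and the 2 libraries outside the fits were put on the same scale. The SE of a log2 fold change was derived from the test, as its absolute value over the square root of the F statistic. With 8691338 to 11719631 counts per library and a biological coefficient of variation of 6.26%, counting error weighs more the fewer counts a gene has, and most for CTSK and CTSS.

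The 37 genes and all lists were chosen with earlier results of these data known. Described in full are all genes called in any of 9 comparisons, those with the lowest adjusted p at 24 h up to 12, and LAMP1, CTSD, TFEB, SQSTM1 and MAP1LC3B; of each other list up to 4 genes passing against the control are named. GAA, MITF, LAPTM5, TFE3 and members named beyond this were chosen after their values were seen. Transcript lengths are those of GENCODE canonical transcripts, and positions come from the count table (hg19). The steps were tested on simulated data, with planted changes above the fold threshold only and not in genes of the lowest counts. Smaller changes and such genes were not covered.

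Alternatives were RLE, library total and upper quartile scaling, no filter, a filter of 1 CPM in 2 libraries, DESeq2 1.42.0, a likelihood ratio test, all 15 libraries, a fit on the compared groups alone, the replicate number as a block, the adjusted p alone, and each library left out in turn. Plots used Python 3.11.15, numpy 2.4.6 and matplotlib 3.10.9.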

Additional observations from a re-analysis of the deposited data

Results flagged for a closer look

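In 4 of the 37 genes the samples of 24 h and 6 h differed beyond the call threshold. MCOLN1 was lower at 24 h, with a log2 fold change of -0.68 after 1 Gy and -0.57 after 6 Gy. CTSS was higher, with 1.08 after 1 Gy and 0.84 after 6 Gy. GABARAPL1 was higher, with 0.65 after 1 Gy and 0.68 after 6 Gy. ARSA was higher after 6 Gy, with 0.60, which became 0.43 and under the fold threshold without replicate 1 of 6 Gy at 24 h. Each difference came from edgeR's quasi-likelihood test of the 2 time points at the same dose, where irradiation and harvest time cannot be told apart. For 1 Gy, upward calls made up 5.41% of the 37 genes and 3.9% of the 12719 tested. Downward calls made up 2.7% and 1.58%. For 6 Gy, the upward shares were 8.11% of the 37 and 7.57% of all tested genes, and the downward shares 2.7% and 3.06%. With so few called genes, these shares do not set the 37 apart. With 3 libraries or fewer in each group, single libraries were not screened for standing apart.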

How the results depend on the processing

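Of the recomputed counts of called genes 410 stayed within 1.5 times the main count, or at 0 where the main count was 0, and 20 did not. Most of the 410 were counts of 0 that stayed at 0, so the total says little about the comparisons with calls. Using the adjusted p alone gave 6 higher and 3 lower 24 h after 1 Gy, 8 and 4 after 6 Gy, 1 higher in 6 Gy against 1 Gy at 24 h, 8 and 3 at 24 h against 6 h after 1 Gy, and 9 and 7 after 6 Gy. With all 15 libraries 1 was called higher after 1 Gy, and 3 higher and 2 lower after 6 Gy, at 24 h against the control. DESeq2 called 0 lower 24 h after 6 Gy. Leaving out 1 library gave 2 to 3 higher and 1 lower 24 h after 1 Gy, 3 to 5 higher (3 without control replicate 1) and 0 to 2 lower after 6 Gy, and 1 to 2 lower at 24 h against 6 h after 1 Gy.

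Direction changed in 2 of the genes recomputed, both near 0: LAMP1 24 h after 1 Gy (0.013) became -0.022 with all 15 libraries, -0.0053 with a replicate block, and -0.029 to 0.052 with 1 library left out. GAA 24 h after 6 Gy (-0.025) became 0.019 with library totals, 0.013 with upper quartile scaling, and -0.092 to 0.032 with 1 library left out.

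Libraries of the same number deviated together with correlations of 0.0287 to 0.256 (median 0.0943), above 0.1 in 11 of 22 pairs. For libraries of different numbers the correlations were -0.256 to 0.122 (median -0.063). Deviations were taken from the group mean and sum to 0 within a group, which ties these correlations to those of the same number. Their lower median is therefore no separate measure of pairing. The main fit did not take the numbers as pairs, and a block on the number was run as an alternative. With the replicate block the rise of CTSZ 24 h after 6 Gy was 0.499, under the fold threshold, so the call was lost. CTSD and SQSTM1 passed under the block at 24 h after 1 Gy (adjusted p = 0.0233 and 0.037) and after 6 Gy (adjusted p = 0.0268 and 0.0413), and 0 counts of called genes moved by over 1.5 times. Depth limits CTSK, CTSS and MITF most, which rest on few counts per library.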
